A study of Homo sapiens with 6 samples.

Results

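The LacZ pull-down (LacZ PD), the control of an RNA pull-down experiment, was compared with the input extract, to describe which RNAs beads and control probes keep and which they lose. All genes with a sum of 10 or more counts over the 2 LacZ PD and 2 input libraries were taken, which gave 9852 of the 60676 genes in the count table. The study retrieved the long non-coding RNA (lncRNA) CyCoNP with antisense probes to find the RNAs attached to it, and LacZ PD was the background against which that pull-down (CyCoNP PD) was read. The 6 libraries were all made from the human neuroblastoma cell line SK-N-BE, treated with 10 µM retinoic acid and collected on day 1.5, so input, LacZ PD and CyCoNP PD share the cell line, the treatment and the time. Input is RNA of the whole extract, and LacZ PD is RNA that stayed on streptavidin beads after the extract was incubated with 5 biotinylated probes against LacZ. Dextran sulfate was added to both kinds of pull-down and not to the input. The study calls its pull-down libraries biological duplicates. Its methods took input as a part of the total extract, but which input library shares an extract with which pull-down was not stated.

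Streptavidin binds biotin very tightly, so a biotinylated antisense probe carries any RNA it pairs with onto the beads. LacZ is a bacterial gene, so human cells make no RNA for which these probes were designed, and what the beads hold after washing is the background of the assay. Such background can come from RNA that sticks to beads, from partial pairing with probes or from RNA in complexes with proteins that carry biotin in the cell. The libraries were made with a PCR-cDNA kit that primes on poly(A) tails and were read on a Nanopore flow cell, where 1 long read counts 1 cDNA whatever its length.

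The depth of the control sets what can be seen. The input libraries held 717905 and 791970 counts, against 18870 in LacZ PD 1 and 140115 in LacZ PD 2, so that the LacZ PD libraries were 7.425 times apart. In CPM (counts per 1000000 counts of the library), a single count was worth 53.0 CPM in LacZ PD 1 and 7.14 CPM in LacZ PD 2. A count of 0 allowed a level of up to 3 counts, or 159.0 and 21.4 CPM. Over both LacZ PD libraries, 1611 of the 9852 genes had no count and 5323 had at most 3. The reads carry no molecular identifiers, and several PCR copies of a cDNA can each be counted, so these limits and all intervals describe counting error and nothing else. Pull-downs entered reverse transcription as a fixed volume and inputs as a fixed mass, and more PCR reactions were pooled for the pull-downs, so effects of the beads and of the library preparation cannot be told apart.

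At its depth, the control was broad. LacZ PD 1 detected 5065 genes, where drawing input 1 or input 2 down to the same total gave an expectation of 4819 and 4277. LacZ PD 2 detected 9340 genes, against 11001 and 10169. Thus LacZ PD 1 reached 111.4% of the mean expectation and LacZ PD 2 88.2%, on opposite sides of equality. Of the 10306 genes with a count in any LacZ PD library, 9917 also had a count in input, and the 389 others held 0.352% of the LacZ PD counts. The 10 most counted genes took 7.27% and 7.36% of LacZ PD 1 and 2, and 12.9% and 9.94% of input 1 and 2.

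The neuroblastoma identity of the cells was visible in both groups. All 16 identity genes listed, such as DBH and MYCN, passed the count minimum, with a summed level of 5699 and 4610 CPM in input 1 and 2 and of 4346 and 3469 CPM in LacZ PD 1 and 2. Of the 16, 5 were above input in both LacZ PD libraries, 5 below and 6 overlapped, where 12.8% of all genes tested were above and 31.9% below. MYCN, the amplified oncogene of many neuroblastomas, stood at 1532 and 1799 CPM in input and at 1166 and 321.2 CPM in LacZ PD, both below input. None of 10 blood and immune markers and 1 of 8 epithelial markers (KRT19) reached the count minimum, and 7 and 3 of them had no count in any of the 4 libraries. Of 10 fibroblast and mesenchymal markers 7 were tested, and their summed level was 624.0 and 114.9 CPM in input 1 and 2 and 582.9 and 178.4 CPM in LacZ PD 1 and 2. COL1A1, a fibrillar collagen, had 192, 10, 4 and 1 counts in input 1, input 2, LacZ PD 1 and LacZ PD 2, so this level was highest in the libraries numbered 1 of both groups.

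By share of counts, the control gave more to nuclear protein-coding RNA and less to several non-coding classes. Nuclear protein-coding genes took 76.6% and 81.6% of the counts of input 1 and 2 and 83.4% and 85.2% of LacZ PD 1 and 2, with mean shares of 79.1% ± 3.58 (SD, n = 2) and 84.3% ± 1.31. Both LacZ PD libraries lay above both input libraries. Mitochondrial rRNA, which carries short poly(A) tails and enters such libraries, took 3.41% and 2.61% of input and 1.66% and 0.983% of LacZ PD, or 0.440 times the input share. Of its 2 genes, MT-RNR2 held most of the counts and was below input in both LacZ PD libraries. MT-RNR1 overlapped, at 4116 and 1102 CPM in input and 1378 and 549.5 CPM in LacZ PD. lncRNAs took 4.44% and 3.78% of input and 2.39% and 3.17% of LacZ PD, or 0.677 times the input share. Gene by gene, lncRNAs resembled coding genes, with a median log2 fold change of -0.57 over 442 genes tested against -0.60 over 8640. Of the 442, 142 were below input in both LacZ PD libraries and 40 above, where 31.9% and 12.8% of all genes tested were. BCYRN1, a short brain cytoplasmic RNA with an internal A-rich stretch, had 3048 and 3223 counts in input and 12 and 324 in LacZ PD, which is 0.425% and 0.407% against 0.0636% and 0.231%. These 4 classes, the other small RNAs (0.108% and 0.125% of input, 0.0583% and 0.104% of LacZ PD) and the genes of other or unlisted class were those whose groups did not overlap. For each of them the exact two-sided permutation test gave p = 0.333, the smallest that 2 libraries against 2 allow, so none could pass a threshold of 0.05. The direction was the same with any library left out, and also with mitochondrially encoded genes taken out of the totals for the classes outside the mitochondrion.

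In the remaining large classes the groups overlapped. Processed pseudogenes took 10.6% and 8.97% of input and 9.14% and 8.13% of LacZ PD. Gene by gene they stood lower, with a median log2 fold change of -1.91 over 577 genes tested, against -0.66 for all genes tested. Of the 577, 209 were below input and 17 above, where 31.9% and 12.8% of all genes tested were, and 212 had no LacZ PD count. Mitochondrial mRNAs took 3.83% and 1.89% of input and 2.75% and 1.58% of LacZ PD, so that LacZ PD 1 lay between the input libraries (exact permutation p = 0.667). Mitochondrial tRNA rested on 2 genes tested and followed the replicate number, with 0.00947% and 0.171% of input and 0.0106% and 0.203% of LacZ PD.

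**Figure D1:**
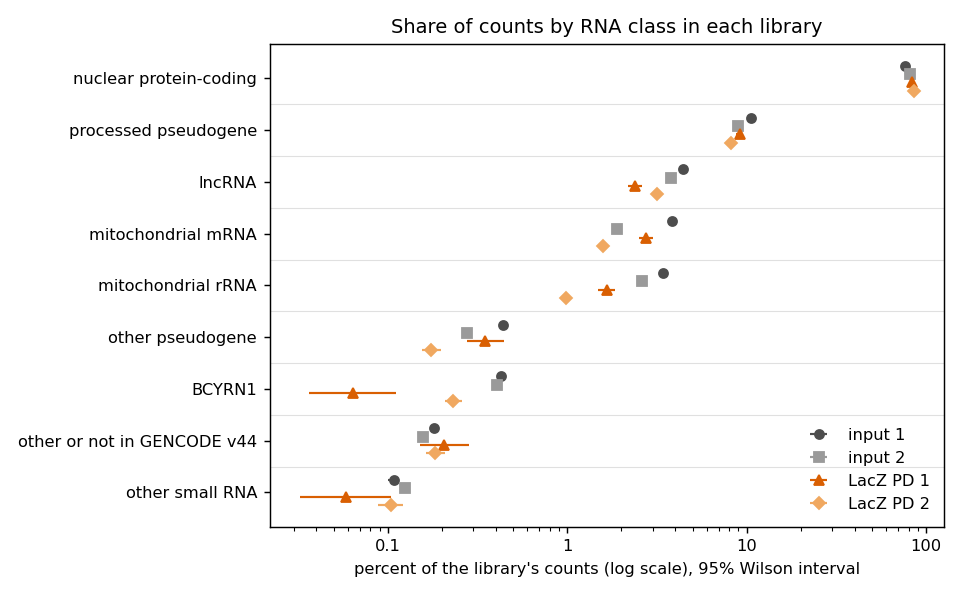
Percent of all counts (log axis) that each RNA class took in input 1, input 2, LacZ PD 1 and LacZ PD 2, with 95% Wilson intervals as bars; mitochondrial tRNA is left out. Mitochondrial rRNA, lncRNA and BCYRN1 sit lower in both LacZ PD libraries than in both input libraries, and nuclear protein-coding RNA sits higher, between 83.4% and 85.2%.

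Gene by gene, few differences passed the test. With edgeR's quasi-likelihood test on the 4 libraries (Benjamini-Hochberg adjusted p under 0.05 and a log2 fold change beyond 1), 5 genes were called higher in LacZ PD and 17 lower, or 0.0508% and 0.173% of the genes tested. Before adjustment, p was under 0.05 for 49 higher genes (0.497%) and 758 lower ones (7.69%). On the CPM scale, both LacZ PD libraries lay above both input libraries for 1259 genes (12.8%) and below them for 3146 (31.9%). A gene below input in this sense is not always shown to be lower. For 2757 of the 3146 genes (87.6%), a LacZ PD library had 0 counts and its limit of 3 counts exceeded the level of an input library. The normalization factors were 1.70 for LacZ PD 1 and 0.756 to 0.914 for the other libraries. This scaling placed the median log2 fold change over the 9852 genes at -0.66, against -0.50 with DESeq2's size factors and -0.25 with the library size alone, and the fitted changes below are to be read against these medians. The test took the spread between libraries over many genes, so a gene whose input libraries differ widely was not tested against its own spread. That spread was not 1 value for all genes. The standard error of the log2 fold change was 1.58 for MT-RNR2 and 1.47 for TUBA1A, both among the most counted, and 0.84 for STMN2. No call remained when all 6 libraries were fitted together or when the count minimum was raised to 50, and with any library left out 0 to 4 higher and 0 or 1 lower calls were left.

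MT-ND1, MAP1B and NPM1 show the range of behaviour among abundant RNAs. MT-ND1, a mitochondrially encoded subunit of respiratory complex I (chrM:3307-4262), had 581 and 249 counts in input and 113 and 530 in LacZ PD, which is 809.3 and 314.4 CPM against 5988 and 3783 CPM. Both LacZ PD libraries were above both input libraries, and over pooled counts its share was 7.36 times that of input (95% counting interval 6.63 to 8.16). The log2 fold change was 2.49 ± 1.03 (SE) with an adjusted p of 0.48 in edgeR's test. The call depended on the processing, with an adjusted p of 0.0202 in DESeq2 and of 0.00958 with the library size alone, within a range of 0.00474 to 1.0 over all alternatives.

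MAP1B, a large microtubule-associated protein of growing axons (chr5:72107234-72209565, canonical transcript of 11790 bases), went the other way. It had 2486 and 2314 counts in input but 8 and 29 in LacZ PD, or 3463 and 2922 CPM against 424.0 and 207.0 CPM, and the groups were far apart. The log2 fold change was -4.06 ± 1.12 with an adjusted p of 0.0946 in edgeR, and it was negative under all alternatives, with adjusted p-values from 4.33e-06 to 1.0 and 4.57e-05 in DESeq2. Over pooled counts the MAP1B share in input was 13.7 times that of LacZ PD (counting interval 9.90 to 19.4). This interval covers neither PCR copies nor the spread between libraries. NPM1, the nucleolar chaperone nucleophosmin (chr5:171387116-171411810), stood at 346.8 and 891.4 CPM in input and at 1908 and 1527 CPM in LacZ PD, higher in both control libraries. Its log2 fold change of 0.83 ± 0.88 (adjusted p = 0.81) did not pass the test.

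Among the most counted genes, both directions occurred. MT-RNR2, the mitochondrial large-subunit rRNA and the top gene of 3 of these 4 libraries, took 29940 and 24950 CPM in input and 15210 and 9278 CPM in LacZ PD. TUBA1A, the alpha-tubulin of young neurons, took 25400 and 12960 CPM in input and 7896 and 3847 CPM in LacZ PD. Both were lower in each LacZ PD library than in each input. GAPDH, a glycolytic enzyme, stood at 2024 and 3288 CPM in input and at 7313 and 6252 CPM in LacZ PD. CALM2, which encodes calmodulin, stood at 2194 and 2655 CPM in input and at 5299 and 6359 CPM in LacZ PD. MT-CO3, a subunit of cytochrome c oxidase, was at 2016 and 2581 CPM against 11020 and 6509 CPM, so that GAPDH, CALM2 and MT-CO3 were higher in each LacZ PD library. None of these 5 was called by edgeR's test, and DESeq2 called TUBA1A lower (adjusted p = 0.0446). The ribosomal protein genes RPLP1, RPL38 and RPS29, all among the 10 highest of input, overlapped between groups. For these, LacZ PD 1 lay below both input libraries and LacZ PD 2 did not. RPL37A and RPL23, also among these 10, were lower in each LacZ PD library. RPL37A was at 7367 and 8810 CPM in input and 3763 and 6587 CPM in LacZ PD. RPL23 was at 11550 and 3604 CPM in input and 2491 and 3411 CPM in LacZ PD.

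**Figure D2:**
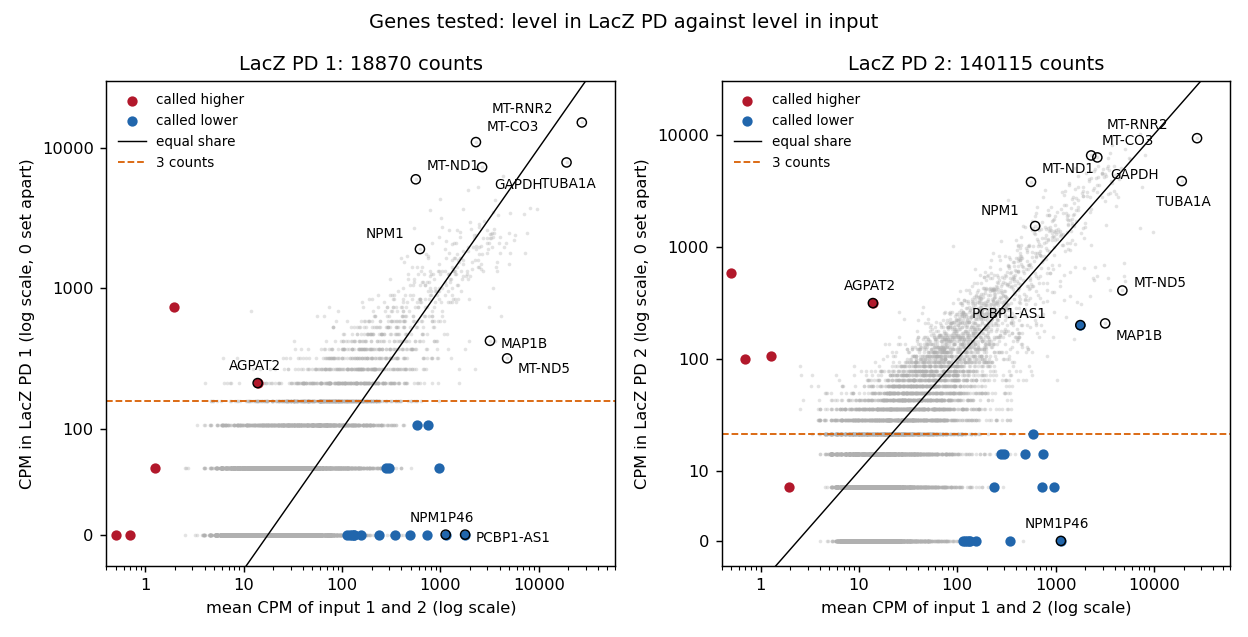
CPM of each of the 9852 genes tested in LacZ PD 1 (left) and LacZ PD 2 (right) against its mean CPM in input, on log axes with 0 counts set apart at the bottom; genes without input counts stand at the left edge, and the dashed line marks 3 counts. MT-ND1, MT-CO3, GAPDH and NPM1 lie above the line of equal share in both panels and MAP1B, MT-ND5 and TUBA1A below it, while most genes of low level lie at or under 3 counts.

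The 5 LacZ probes were compared with the transcripts of these genes, since a stretch of exact complementarity is the simplest way a control probe could pair with a cellular RNA. In the longest GENCODE v44 transcript of each gene, the longest stretch complementary to any LacZ probe had a median of 8 bases over 9830 genes and ranged from 5 to 15, and 8.75% of the genes had 10 or more. The 5 genes called higher had 7 to 11 bases and the 17 called lower 5 to 10. The stretches of 6 genes are given 5′ to 3′ with 8 bases on each side, the complementary stretch in capitals, to set genes that stood higher in the control beside MAP1B, which stood lower. Positions are in GRCh38 on the strand of the gene. MT-ND1 (chrM:3570-3593, plus strand) and MT-CO3 (chrM:9607-9630, plus strand) have theirs in the coding part, MAP1B (chr5:72205509-72205532, plus strand, exon 7 of 7) and AGPAT2 (chr9:136673388-136673414, minus strand, exon 6 of 6) after it. NPM1 (chr5:171390105-171390129, plus strand, exon 2 of 10) and GAPDH (chr12:6537789-6537812, plus strand, exon 3 of 4) have theirs in a transcript annotated without a coding part.
MT-ND1: cctccccaTACCCAACcccctggt
MT-CO3: catccgtaTTACTCGCatcaggag
NPM1: atgagcacCAGTTATCTttaagaac
GAPDH: acctgaccTGCCGTCTagaaaaac
AGPAT2: ggaccccgAGGCCAGACGCacactgtc
MAP1B: actagccaACCCAACTgacttctg
MT-ND1, MT-CO3, GAPDH and MAP1B each have 8 bases, the median of all genes tested, although the first 3 were higher in LacZ PD and MAP1B lower. NPM1 has 9 and AGPAT2 11. The stretch was 12 or more bases in 45 genes, too few and too low in counts to compare their calls with the 0.0508% and 0.173% of all genes. A match of this kind is a description of the letters and does not show pairing.

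The 13 mitochondrially encoded mRNAs did not move together. Their median log2 fold change was -2.50, against -0.66 for all genes tested, and edgeR called none, with 1 higher and 8 lower before adjustment, where 0.497% and 7.69% of all genes were. DESeq2 called MT-ND1 higher (adjusted p = 0.0202) and MT-CO1 (0.0202) and MT-ND5 (0.0164) lower, and the same 3 were called with the library size alone. On the CPM scale 2 lay above input in both LacZ PD libraries (MT-ND1 and MT-CO3), 5 lay below and 6 overlapped, against 12.8% above and 31.9% below among all genes tested. MT-CO1, the catalytic subunit of cytochrome c oxidase, was at 6256 and 881.3 CPM in input and at 424.0 and 406.8 CPM in LacZ PD. Its log2 fold change was -3.57 ± 1.103 (adjusted p = 0.167 in edgeR), and it shrank to -1.64 without input 1. MT-CO2, another subunit of the same enzyme, was at 431.8 and 926.8 CPM in input and at 212.0 and 157.0 CPM in LacZ PD. MT-CO1 and MT-CO2 were thus both below input where MT-CO3, read from the same strand, was above it.

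The complex I subunits of this genome were just as uneven, and their input libraries often disagreed. MT-ND5 had 536 and 6967 counts in input and 6 and 57 in LacZ PD, or 746.6 and 8797 CPM against 318.0 and 406.8 CPM. MT-ND4 had 12654 and 1425 counts in input and 69 and 190 in LacZ PD, or 17630 and 1799 CPM against 3657 and 1356 CPM. MT-ND5 was below input in both LacZ PD libraries, with a log2 fold change of -4.24 ± 1.21 (adjusted p = 0.118) that shrank to -1.42 without input 2, while MT-ND4 overlapped. MT-ND2 overlapped as well, at 2513 and 260.1 CPM in input and 1643 and 364.0 CPM in LacZ PD. MT-CYB, the cytochrome b of complex III, hardly differed between groups, at 2695 and 1744 CPM in input and 2385 and 2020 CPM in LacZ PD.

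**Figure D3:**
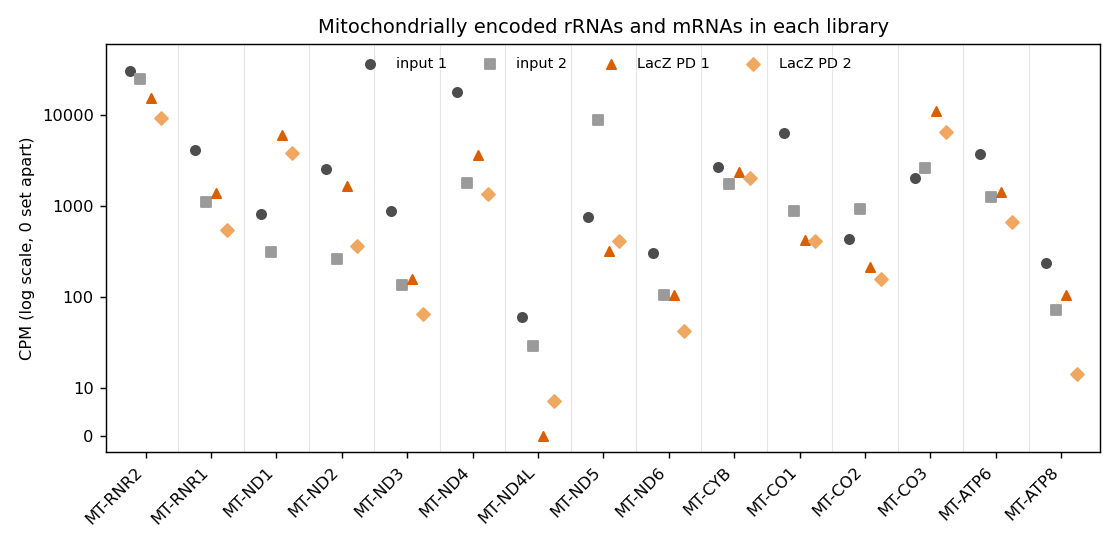
CPM (log axis, 0 set apart) of the 2 rRNAs and 13 mRNAs of the mitochondrial genome in input 1, input 2, LacZ PD 1 and LacZ PD 2, 1 point per library. MT-ND1 and MT-CO3 are higher in both LacZ PD libraries, MT-RNR2, MT-CO1, MT-CO2 and MT-ND5 are lower in both, and the input points of MT-ND4 and MT-ND5 lie far apart.

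The 5 genes called higher rested on few counts, and most on 1 library. Apart from AGPAT2, they had at most 3 counts over both inputs, so these 4 passed the count minimum only through the group where they were high. MT-TS2, a mitochondrial serine tRNA, had 0 counts in both inputs, 0 in LacZ PD 1 and 81 in LacZ PD 2, and also 0 in both CyCoNP PD libraries, so the groups overlapped and the call came from LacZ PD 2 alone (adjusted p = 6.09e-10). The annotated gene has 59 bases, less than the shortest reads the authors kept, so the reads counted were longer than the gene. MTCYBP12, a pseudogene of MT-CYB on chromosome X, had 1, 2, 14 and 1 counts in input 1, input 2, LacZ PD 1 and LacZ PD 2, and 3033 and 60 in CyCoNP PD. Its call came mainly from LacZ PD 1, without which the log2 fold change was 1.65 instead of 6.04. FMC1-LUC7L2, a readthrough gene whose reads also match LUC7L2, had 1, 0, 0 and 14 counts, and ENSG00000284934, a protein-coding entry without a name, had 0, 2, 1 and 15. FMC1-LUC7L2 overlapped between groups, and neither call remained without LacZ PD 2, or without either input library.

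AGPAT2, an enzyme that makes phosphatidic acid in the endoplasmic reticulum (chr9:136673143-136687457), was the call with 4 or more counts in every library. It had 9 and 12 counts in input and 4 and 44 in LacZ PD, or 12.5 and 15.2 CPM against 212.0 and 314.0 CPM, and the groups did not overlap. Over pooled counts the share was 21.7 times that of input (counting interval 12.8 to 38.2). The log2 fold change was 3.82 ± 0.88 (adjusted p = 0.0124), and it stayed positive in all alternatives, between 2.84 and 4.39. The adjusted p exceeded 0.05 with all 6 libraries in the fit (0.271) and without a count minimum (0.815). It also did so with edgeR's filter filterByExpr (0.221) and with a minimum of 50 counts (0.138), and DESeq2 gave AGPAT2 no adjusted p. AGPAT2 was also not called without LacZ PD 2, input 1 or input 2, where the change was 2.84, 3.68 and 4.03.

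Of the 17 genes called lower, 10 were nuclear protein-coding genes, 5 were pseudogenes and 2 were lncRNAs. NPM1P46, a pseudogene of NPM1, had 86 and 1697 counts in input and 0 in both LacZ PD libraries. The adjusted p was 5.52e-06, but 0.817 without input 2 and 0.16 in DESeq2. With 3 counts allowed over both LacZ PD libraries, its share was at least 6.35-fold lower than in input 1 and 113.6-fold lower than in input 2. MTND2P28 and MTCO1P12 are nuclear copies of mitochondrial genes that lie next to each other on chromosome 1 (chr1:629640-630683 and chr1:631074-632616). MTND2P28 had 473 and 19 counts in input and none in LacZ PD. Its share was at least 34.9-fold lower than in input 1 but only 1.27-fold lower than in input 2, and the adjusted p of 2.25e-04 rose to 1.0 without input 1. MTCO1P12 had 871 and 223 in input and 2 in each LacZ PD library. Reads of such copies can be assigned to the gene they derive from or the reverse, so their counts are uncertain.

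For PCBP1-AS1, an lncRNA, the input libraries were close. It had 1403 and 1278 counts in input and 0 and 28 in LacZ PD, or 1954 and 1614 CPM against 0 and 199.8 CPM, and the groups did not overlap (log2 fold change -4.08 ± 1.03, adjusted p = 0.0359). The adjusted p was 0.0559 with DESeq2's size factors and 0.00897 in DESeq2 itself, within a range of 1.51e-06 to 1.0 over the alternatives. ABCC4, a transporter of cyclic nucleotides and drugs, had 78 and 103 counts in input and none in LacZ PD, and its pooled share was at least 6.35-fold lower. NPM1P6 had 70 and 131 counts in input and none in LacZ PD, at least 7.05-fold lower. For ABCC4 and NPM1P6 these bounds rest on LacZ PD 2, since a 0 in LacZ PD 1 allows up to 159.0 CPM, above 1 or both input levels.

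For most other genes called lower, the input libraries themselves differed widely. TCF12, a bHLH transcription factor, had 90 and 1421 counts in input and 1 in each LacZ PD library. IREB2, an iron-responsive RNA-binding protein, had 80 and 838 in input and 2 and 3 in LacZ PD. RAD23B, which takes part in DNA repair and protein turnover, had 642 and 66 in input and 0 and 2 in LacZ PD. TRIM33 had 205 and 19 counts in input, FOXJ3 175 and 18 and ENSG00000213303 177 and 3, all without a LacZ PD count. For these last 3, the level in input 2 was so low that the pooled limit gave bounds of 1.27-fold, 1.204-fold and none against it. The lncRNA ENSG00000269888 overlapped between groups, since its input libraries held 2 and 1146 counts and LacZ PD 0 and 1. The remaining calls were DYRK2 (234 and 114 in input, 0 and 1 in LacZ PD), SESN3 (123 and 44, 0 and 0) and, outside the rule for named genes and added after their values were seen, ATP2B1 (229 and 222, 1 and 2) and HIPK1 (150 and 274, 1 and 2).

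For some genes, the parent and its processed copies stood on opposite sides of input. For NPM1 the parent gene stood at 346.8 and 891.4 CPM in input and 1908 and 1527 CPM in LacZ PD, while its 17 pseudogenes with counts summed to 493.1 and 2768 CPM in input and 476.9 and 14.3 CPM in LacZ PD. Parent and copies together gave 839.9 and 3659 CPM in input and 2385 and 1542 CPM in LacZ PD, and these sums overlapped. The parent was thus higher and the copies lower, and the totals did not separate the groups. In LacZ PD 1, however, the copies rested on 9 counts and lay only just below input 1. Of their 2192 counts in input 2, NPM1P46 held 1697. EEF1B2, a translation elongation factor, was at 477.8 and 1075 CPM in input and at 1325 and 1499 CPM in LacZ PD, and its pseudogenes summed to 2928 and 2914 CPM in input against 424.0 and 456.8 CPM. Together they were at 3406 and 3989 CPM in input and at 1749 and 1956 CPM in LacZ PD, lower in both control libraries. RPS23P8, a copy of the ribosomal protein gene RPS23 and among the 10 highest genes of input, was at 5985 and 8359 CPM in input and at 1802 and 1463 CPM in LacZ PD. The RPS23 parent overlapped between groups, at 1906 and 4225 CPM in input and 1908 and 4882 CPM in LacZ PD.

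Not every family split in this way. The parent and copies of RPL13A summed to 3643 and 5048 CPM in input and 3763 and 7387 CPM in LacZ PD, and those of RPS27 to 4184 and 6423 CPM and 2438 and 5510 CPM, and both overlapped. For MT-ND1 the nuclear copies took 121.2 and 73.2 CPM in input and 371.0 and 21.4 CPM in LacZ PD, and the sum with MT-ND1 itself was 930.5 and 387.6 CPM against 6359 and 3804 CPM. MT-ND1 was higher in the control whether or not the reads of its copies were added.

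Among abundant protein-coding genes, the shares above and below input changed with transcript length. Abundance was taken in 2 ways, because a mean over the 4 libraries lets genes in through a high LacZ PD level and a mean over input through a high input level. Both LacZ PD libraries lay above both inputs for 29.9% and below them for 15.6% of 1339 genes with 100 CPM or more over the 4 libraries, and for 20.4% and 25.0% of 1286 genes with 100 CPM or more in input. The balance of higher and lower genes thus turned with the choice, which was added after seeing the data, and no direction is given for it. The order by length was alike in both. With the mean over the 4 libraries, the 190 genes with a canonical transcript of 1000 to 1500 bases were above for 54.7% and below for 6.32%, and the 141 with more than 6000 bases were above for 9.93% and below for 31.9%. With the mean over input, the 150 genes of 1000 to 1500 bases were above for 44% and below for 11.3%, and the 180 with more than 6000 bases were above for 5.0% and below for 46.1%. The median log2 fold changes of these bins were 0.24 and -1.03 in the former and -0.05 and -1.35 in the latter, and from 1000 bases upward the median declined from bin to bin in both. Genes are not replicates, so these shares are given without a test.

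Counted over whole libraries, the lower share of long RNAs separated the groups above 6000 bases. Such transcripts took 13.2% and 10.4% of the protein-coding counts of input 1 and 2 and 10.3% and 6.26% of LacZ PD 1 and 2, both LacZ PD libraries below both inputs, although LacZ PD 1 only just (exact permutation p = 0.333, the smallest possible). Transcripts of more than 3000 bases took 37.8% and 30.4% of input and 33.5% and 22.03% of LacZ PD, which overlapped. Ribosomal protein mRNAs, which are short and abundant, took 17.3% and 24.7% of the protein-coding counts of input and 14.7% and 27.5% of LacZ PD, so they separated the libraries numbered 1 from those numbered 2. Without them, transcripts of more than 3000 bases took 45.6% and 40.4% of input and 39.3% and 30.4% of LacZ PD, and the groups no longer overlapped (exact permutation p = 0.333). Length here is that of the annotated canonical transcript, and the length of the reads was not analysed.

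**Figure D4:**
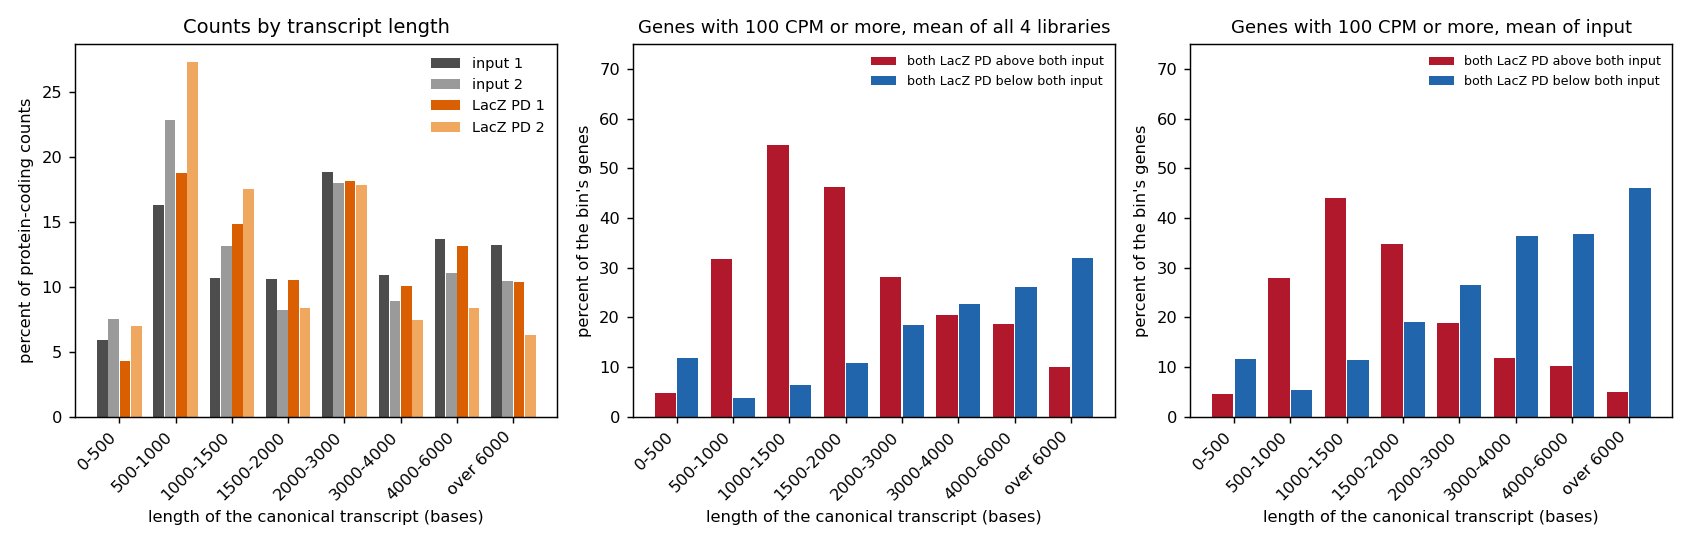
Left, percent of the protein-coding counts of each library by length of the canonical transcript in bases; middle and right, percent of the protein-coding genes of each length bin for which both LacZ PD libraries lay above, or below, both input libraries, for genes with a mean of 100 CPM or more over the 4 libraries (middle) or over input (right). From 1000 to 1500 bases 54.7% and 44% lie above input, and above 6000 bases 31.9% and 46.1% lie below it.

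Sorted by function, the listed gene groups differed in how many members stood above or below input, and edgeR called no member of any list. DESeq2 called MAP1B, TUBA1A, the mitochondrial genes MT-ND1, MT-CO1 and MT-ND5, and DKC1, a nucleolar protein counted 529 and 915 times in input but 4 and 22 times in LacZ PD (adjusted p = 0.0277). Of 38 translation factors, 19 were above input in both LacZ PD libraries and 4 below. Of all genes tested, most of them of much lower level, 12.8% were above and 31.9% below. For protein-coding genes with a mean of 100 CPM or more over the 4 libraries these shares were 29.9% and 15.6%. With that mean taken over input they were 20.4% and 25.0%. EEF1A1, the main elongation factor, stood at 653.3 and 902.8 CPM in input and 3604 and 3190 CPM in LacZ PD. The summed level of the list was 11880 and 11900 CPM in input and 19240 and 16810 CPM in LacZ PD, higher in both. Of 17 glycolysis enzymes 9 were above and 3 below, with summed levels of 6288 and 7388 CPM in input and 16750 and 13240 CPM in LacZ PD. LDHB, a lactate dehydrogenase, was at 743.8 and 896.5 CPM against 2120 and 1906 CPM, and ALDOA, an aldolase, at 540.5 and 484.9 CPM against 1431 and 899.3 CPM. The median log2 fold changes of these lists were 0.09 and 0.53, and positive with the library size alone as well (0.61 and 1.15).

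Ribosomal and respiratory genes mostly overlapped, and secretory genes did so for 14 of 30. Of 79 cytosolic ribosomal protein genes 11 were above, 6 below and 62 overlapped, and their summed level was 132200 and 201600 CPM in input and 122700 and 234400 CPM in LacZ PD. Of 74 nuclear-encoded respiratory chain genes 23 were above and 4 below, and of 30 genes of endoplasmic reticulum chaperones and secretion 13 were above and 3 below. Over all genes tested 12.8% were above and 31.9% below. Among protein-coding genes with a mean of 100 CPM or more these were 29.9% and 15.6% over the 4 libraries, and 20.4% and 25.0% over input. The summed level of the secretory list was 7937 and 8366 CPM in input and 11870 and 9385 CPM in LacZ PD, higher in both. The median log2 fold changes of these 3 lists were -0.29, -0.14 and -0.12, and turned positive with the library size alone (0.17, 0.34 and 0.45), so no direction is given for these medians. Among 22 cytosolic chaperones 7 were above and 4 below, and HSPA8, the constitutive heat shock protein, overlapped at 1144 and 339.7 CPM in input and 1696 and 478.2 CPM in LacZ PD.

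In 4 other groups, more members were below input than above it. Of 26 microtubule-associated protein genes tested, 9 were below and 1 above, and 7 were lower at an unadjusted p under 0.05. MAP2, a dendritic member of this family with a canonical transcript of 9650 bases, was at 543.2 and 322.0 CPM in input and 212.0 and 78.5 CPM in LacZ PD. STMN2, a short transcript of the same list that encodes a tubulin-binding protein of growth cones, was at 551.6 and 633.9 CPM in input and 741.9 and 1021 CPM in LacZ PD, and was the member above input. Of 15 neural adhesion genes tested 5 were below and 1 above, with NRCAM at 186.7 and 274.0 CPM in input and 106.0 and 71.4 CPM in LacZ PD. Of 25 very long mRNAs tested 11 were below and 1 above, and 5 had no LacZ PD count. Of 14 stress granule and P-body genes 7 were below and none above, among them G3BP2 at 319.0 and 176.8 CPM in input and 53.0 and 28.6 CPM in LacZ PD. The median log2 fold changes were -0.98, -1.90, -1.59 and -1.19, all below the -0.66 of all genes tested, and negative with the library size alone. Against the 31.9% of all genes tested that were below input, 9 of 26 and 5 of 15 are about the same share, and 11 of 25 and 7 of 14 are larger ones. Of the members below input, however, 4 of 9, 4 of 5, 10 of 11 and 4 of 7 had a 0 whose limit exceeds an input level.

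Tubulins were divided. TUBA1A was lower in LacZ PD and carried the summed level of the list, 27460 and 14760 CPM in input and 12190 and 6602 CPM in LacZ PD. Yet 6 of the 11 tubulins tested were above input and 2 below, against 12.8% and 31.9% of all genes tested. Among protein-coding genes with a mean of 100 CPM or more over the 4 libraries, 29.9% were above and 15.6% below. With that mean taken over input, 20.4% were above and 25.0% below. TUBA1B was at 972.3 and 955.8 CPM in input and 2332 and 1377 CPM in LacZ PD, and TUBB at 305.1 and 329.6 CPM against 582.9 and 592.4 CPM. Among 22 actin cytoskeleton genes 16 overlapped, ACTB among them at 1396 and 700.8 CPM in input and 2756 and 1349 CPM in LacZ PD.

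Non-coding RNAs with well-known functions gave mixed values. MALAT1, an abundant nuclear lncRNA, was at 1270 and 6229 CPM in input and 1325 and 8108 CPM in LacZ PD. It was thus split by replicate number and not by group. NEAT1, the scaffold of paraspeckles, had 39 and 71 counts in input and 0 and 10 in LacZ PD, and MEG3 was at 179.7 and 337.1 CPM against 212.0 and 535.3 CPM. GAS5 and SNHG5, hosts of small nucleolar RNAs, overlapped between groups, as did 12 of the 16 genes of their list and 5447 of the 9852 genes tested. ENSG00000280614, which is outside these well-known RNAs, is an unnamed entry annotated as an lncRNA (chr21:8393419-8394341, minus strand). It has a single exon of 923 bases and near-identical copies, and was among the 10 highest genes of input. Which RNA its reads came from was not tested. It is part of the lncRNA class and held 0.819% of all counts of input 1. It was at 8190 and 2000 CPM in input and 1802 and 492.5 CPM in LacZ PD, lower in each. The vault RNA VTRNA1-3 overlapped, at 208.9 and 383.9 CPM in input and 53.0 and 528.1 CPM in LacZ PD, and VTRNA1-2 had 22 and 37 counts in input and 0 and 1 in LacZ PD. Both genes have 89 bases, less than the shortest reads the authors kept, so the reads counted were longer than the genes. Of the 7 small structured RNAs tested none was above input and 5 were below, where 12.8% and 31.9% of all genes tested were. All 5 had a 0 in LacZ PD that allows a level above an input library, so no difference was detectable at this depth.

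Histone mRNAs of the cell cycle, which lack poly(A) tails, were scarce in both groups. Of 11 tested 7 were below input and 3 above, where 31.9% and 12.8% of all genes tested were. Of the 7, however, 6 had a 0 in LacZ PD that allows a level above an input library. The summed level of the list was 834.4 and 916.7 CPM in input and 318.0 and 663.7 CPM in LacZ PD. H4C3 was at 526.5 and 633.9 CPM in input and 159.0 and 442.5 CPM in LacZ PD. The mRNAs of biotin-dependent carboxylases, whose proteins carry biotin and can bind streptavidin, were low in both groups. Of 6 tested none was above input, and the 3 below it had a 0 in LacZ PD that allows a level above an input library, and their summed level was 130.9 and 130.1 CPM in input and 159.0 and 114.2 CPM in LacZ PD. At this depth a small difference could not be seen, since ACACA had 0 counts in LacZ PD 1 and 13 in LacZ PD 2.

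The genes that the study measured in the pull-down by RT-qPCR differ in how well this control reads them. IGF2, a fetal growth factor, had 80 and 426 counts in LacZ PD, or 4240 and 3040 CPM against 3481 and 3628 CPM in input, and overlapped. UBE2V2, a ubiquitin-conjugating enzyme variant, had 8 and 25 LacZ PD counts, PSMC4, a proteasome subunit, 3 and 8, CENPF, a kinetochore protein, 3 and 34, NCAM1, a neural adhesion molecule, 3 and 1, and SAMD4B, an RNA-binding protein, 1 and 0. The last 2 were at or under 3 counts in each LacZ PD library, so their control level is bounded rather than measured. LINC02381, the gene of CyCoNP, had 20 and 39 counts in input and 1 and 20 in LacZ PD, or 27.9 and 49.2 CPM against 53.0 and 142.7 CPM, and 11687 and 3507 counts in CyCoNP PD. GAPDH, the negative control of that panel, had 138 and 876 counts in LacZ PD and a higher CPM in each of these libraries than in either input.

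From 10 to 100 CPM, the number of zeros in LacZ PD 1 was close to that expected from counting. LacZ PD 2 held more zeros than expected at all levels up to 500 CPM. Below 10 CPM, genes with fewer than 10 input counts passed the count minimum only through LacZ PD counts. The number of zeros in that bin was thus partly set by the minimum. Among the 2558 genes at 20 to 50 CPM in the pooled input, 1368 had no count in LacZ PD 1, where counting at the input share gave an expectation of 1424.7. In LacZ PD 2, 400 of them had no count against 51.3 expected. Among the 1239 genes at 50 to 100 CPM, 63 had no count in LacZ PD 2 against 0.2 expected, and 23 had none in either control library against 0.08. Of the 422 genes at 200 to 500 CPM, 14 had no count in LacZ PD 1 against 3.0 expected and 3 had none in LacZ PD 2. Among the 159 genes at 1000 CPM or more, NPM1P46 was the gene without a count in both. The expectation holds the input share fixed, and chi-square over genes was 2.55 per degree of freedom between the LacZ PD libraries and 9.97 between the input libraries, so replicates varied by more than counting too.

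**Figure D5:**
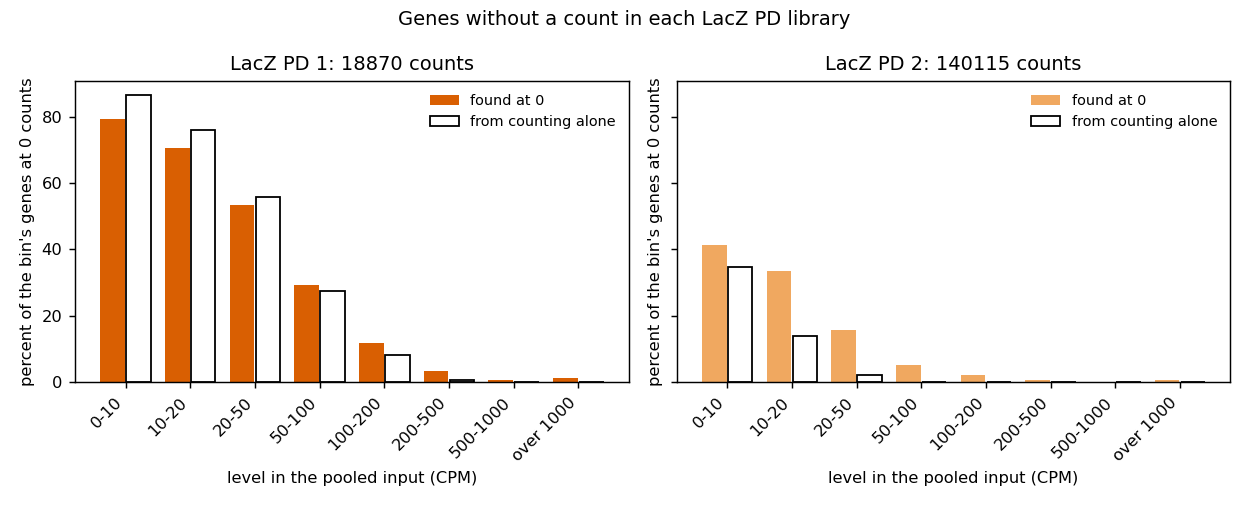
Percent of the genes tested without a count in LacZ PD 1 (left) and LacZ PD 2 (right), by level in the pooled input in CPM; filled bars are the genes found at 0 and open bars the percent expected from counting alone at the input share. Below 100 CPM the bars nearly match in LacZ PD 1, and in LacZ PD 2 the filled bars exceed the open ones in all bins below 200 CPM. In the bin below 10 CPM the count minimum itself removed genes without LacZ PD counts.

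Set beside the other pull-down, the target itself differed by far. LINC02381 was at 53.0 and 142.7 CPM in LacZ PD against 7729 and 6811 CPM in CyCoNP PD, and even this difference had an adjusted p of 0.078 in edgeR (log2 fold change -6.39) and of 5.49e-15 in DESeq2, so a lack of edgeR calls says little here. In the fit of all 6 libraries, 0 of 12565 genes were called in either direction between LacZ PD and CyCoNP PD, with 58 higher and 595 lower in LacZ PD at an unadjusted p under 0.05, while DESeq2 called 2 higher and 36 lower. MAP1B had 918 and 236 counts in CyCoNP PD, and NPM1 1461 and 611. The log2 fold change of LacZ PD against CyCoNP PD was -1.48 ± 0.67 for MAP1B (adjusted p = 0.871) and 0.08 ± 0.68 for NPM1 (adjusted p = 0.997). MT-ND1 had 48901 and 3481 counts in CyCoNP PD, with -2.67 ± 0.91 (adjusted p = 0.749). AGPAT2 had 14 and 8 counts in CyCoNP PD against 4 and 44 in LacZ PD, and was 4.04 ± 0.76 higher in LacZ PD on the log2 scale, with an adjusted p of 0.0937 in edgeR and 1.37e-04 in DESeq2. Both pull-downs were compared with the same input libraries.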

How the data were processed

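Gene counts of 6 Nanopore PCR-cDNA libraries were used, 2 each of input, LacZ PD and CyCoNP PD. The authors basecalled the reads, removed short ones, aligned the rest to GRCh38 with minimap2 (2.24-r1122) and counted them per Ensembl gene with Bambu. The authors deposited whole-number counts per gene without normalization. The authors also deposited CPM, which equalled counts per 1000000 of the library total within 5.09e-11. How Bambu splits reads between a gene and its copies can change pseudogene counts.

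Input and LacZ PD were compared with edgeR 4.0.16 in R 4.3.3 (TMM, quasi-likelihood F test, group only) over genes with a sum of 10 or more counts, and all 6 libraries were fitted for LacZ PD against CyCoNP PD. Standard errors were derived from the F statistic. DESeq2 1.42.0, other scalings and filters, each library left out in turn and a block for the replicate number were alternatives. Symbols, classes and lengths came from GENCODE v44 (GRCh38), which held 9830 of the 9852 genes. Single values were tested by exact two-sided permutation. Counting intervals are Wilson (shares) or exact conditional (ratios) at 95%, and the limit for 0 counts is 3 counts per library for a level and over the group for a fold.

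The fit was tested on simulated counts drawn with the same spread for all genes. That setting differs from these data, so the simulation checks the working of the fit only. The members and gene lists were chosen with earlier results of these data known. Named genes are MT-ND1, MAP1B and NPM1, the calls with the smallest p (at most 10 higher and 15 lower), the 10 highest genes of each group, the 2 to 4 highest of each list, the RT-qPCR panel, the mitochondrial mRNAs and rRNAs, and the 5 highest genes at 0 in the other group. The probe sequences themselves are not reproduced here. With 2 libraries per group, p-values reflect these libraries only. Those of edgeR use a spread between libraries taken over many genes, not that of each gene.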

Additional observations from a re-analysis of the deposited data

How the results depend on the processing

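The counts of calls depended on the processing, and the cause was not tested. The library size alone gave 9 higher and 20 lower genes, and DESeq2 1 and 19, of which 0 and 5 were among the edgeR calls; DESeq2 gave an adjusted p to 684 genes and before adjustment had p under 0.05 for 31 higher and 209 lower ones. Without a count minimum, with filterByExpr, with a minimum of 50 and with all 6 libraries in the fit, edgeR called 0 higher and 0 lower, while p before adjustment was under 0.05 for 60 to 69 higher and 291 to 818 lower genes. Leaving out 1 library, which leaves a single library in its group that is assumed to vary like the other group, gave 0 to 4 higher and 0 to 1 lower calls and a median log2 fold change of -4.83 to -0.45, the lowest without LacZ PD 2. Over these, the change of FMC1-LUC7L2 ranged from -1.90 (without LacZ PD 2) to 7.26, that of ENSG00000269888 from -11.63 to 0.84 (without input 2) and that of MT-ND2 from -2.13 to 1.01 (without input 1), so each reversed. The shares of RNA classes and the numbers of genes detected stayed within their replicate spread under the alternatives tried, although the differences of mitochondrial mRNA and tRNA, whose groups overlapped, changed sign without input 1, and that of tRNA also without LacZ PD 2. With 18870 counts in LacZ PD 1, a 0 there allows up to 159.0 CPM. Taking abundance from input alone, an alternative added after seeing the data, moved the protein-coding genes above and below input from 29.9% and 15.6% to 20.4% and 25.0%.

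With the replicate number as a block, 10 genes were higher and 128 lower, among them 5 and 16 of the calls made without it. Deviations from the group means correlated at 0.259 between libraries of the same number. With 2 numbers this does not show that they mark a shared extract. Between LacZ PD and CyCoNP PD the block gave 6 higher and 91 lower genes, against 0 without it.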

Other observations

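Among the 389 genes with LacZ PD counts and none in either input, few had more than 3 counts. Apart from MT-TS2, the highest were ENSG00000274383, an lncRNA of chromosome 15 with 2 and 6 counts in LacZ PD, ANXA1, the membrane-binding protein annexin, with 5 and 0, GAPDHP38, a copy of GAPDH, with 4 and 0, and C11orf21 with 0 and 3. ENSG00000274383 also had 74 and 31 counts in CyCoNP PD and ANXA1 41 and 0, so both were seen in a second kind of pull-down. They were chosen for these counts, and those of ANXA1 and GAPDHP38 rest on LacZ PD 1 alone.

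From 6 exons upward, the number of exons gave a similar picture to length. Protein-coding genes with 1 exon stood apart. Of the 157 tested, at any level, 8.28% were above input and 41.4% below, beside 3.60% and 43.8% of the 1168 with more than 20 exons. Among protein-coding genes with a mean of 100 CPM or more, the 458 with 6 to 10 exons were above input in both LacZ PD libraries for 38.4% and below for 12.9%, and the 80 with more than 20 exons were above for 2.5% and below for 33.8%. Taking the mean over input instead, 410 and 110 genes were above for 26.6% and 0.909% and below for 20.98% and 46.4%. By GC content the differences were smaller. The 238 genes with at most 40% GC were above for 24.8% and below for 15.6%, and the 113 with more than 60% GC were above for 36.3% and below for 9.73%. With the mean over input, 250 and 97 genes were above for 15.6% and 26.8% and below for 28.4% and 17.5%. Exon number and length go together in these genes, and their separate parts were not tested.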
